A study of Mus musculus with 30 samples.

Results

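The genes described here are 10 genes of the ubiquitin system that have been linked to loss of muscle mass: FBXO32, TRIM63, FBXO30, FBXO21, FBXO31, FBXO40, NEDD4, MDM2, MDM4 and TRAF6. They were chosen by gene symbol as a known family, with earlier results of these data known, and all 10 were found among the 21073 genes of the deposited table, whose capital spelling of mouse symbols is kept here. The study asked how experimental autoimmune encephalomyelitis (EAE), a mouse model of multiple sclerosis, changes gene expression in the extensor digitorum longus (EDL), a fast muscle of the lower hindlimb. RNA-Seq was done on EDL muscle of 30 wild-type female SJL/J mice, with 5 mice in each of 6 groups. EAE was induced with a peptide of the myelin proteolipid protein in complete Freund's adjuvant (CFA), and pertussis toxin was not part of the induction. The OVA group received ovalbumin, an antigen foreign to the nervous system, in the same adjuvant, and the Ctrl group was left unimmunized. EAE and OVA mice thus share the adjuvant and differ in the antigen and, by the study's methods, in its dose. Muscles were taken on day 14, which the study calls the peak of disease, and on day 40, its chronic remission. Each mouse gave 1 library on 1 day, so the days compare different mice, the p-values measure the spread between mice, and whether mice of a group shared a cage or an immunization batch is not given in the sources used here. The ages of the mice are not given there either.

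Muscle proteins are marked for the proteasome by chains of ubiquitin, which an activating enzyme (E1), a conjugating enzyme (E2) and a ligase (E3) pass on to the substrate. The ligase chooses the substrate. In muscle that is unloaded, denervated, starved or inflamed, a small set of ligase genes is known to be induced, largely through FoxO transcription factors, with input from the glucocorticoid receptor, NF-κB and, after denervation, myogenin. The F-box proteins among the genes below act as the substrate-binding subunit of SCF ligases, which are built on SKP1 and CUL1. TRIM63 and MDM2 are RING ligases, and NEDD4 is a HECT ligase.

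Levels are given as RPKM, the reads on a gene's exons scaled by exon length and by sequencing depth, so levels can be compared between genes. Averaged over the 30 mice, TRIM63 was the most abundant of the 10 genes at 145.8 RPKM, followed by NEDD4 at 75.4, FBXO32 at 66.0, FBXO40 at 40.6, FBXO31 at 38.5 and MDM2 at 21.8. The other 4 genes were expressed at a low level, FBXO21 at 4.51, MDM4 at 4.35, FBXO30 at 4.28 and TRAF6 at 3.08 RPKM. This order did not hold in every group. In EAE mice of day 14 the mean of FBXO32 (136.7 RPKM) was above that of NEDD4 (95.2), and FBXO31 (66.1) was above FBXO40 (57.7). The widest range was that of FBXO40, whose highest mouse had 17.2 times the level of its lowest, followed by FBXO32 with 8.34 times and MDM4 with 7.98 times. FBXO21, MDM2 and TRAF6 had the narrowest ranges, 2.22, 2.27 and 2.35 times.

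**Figure D1:**
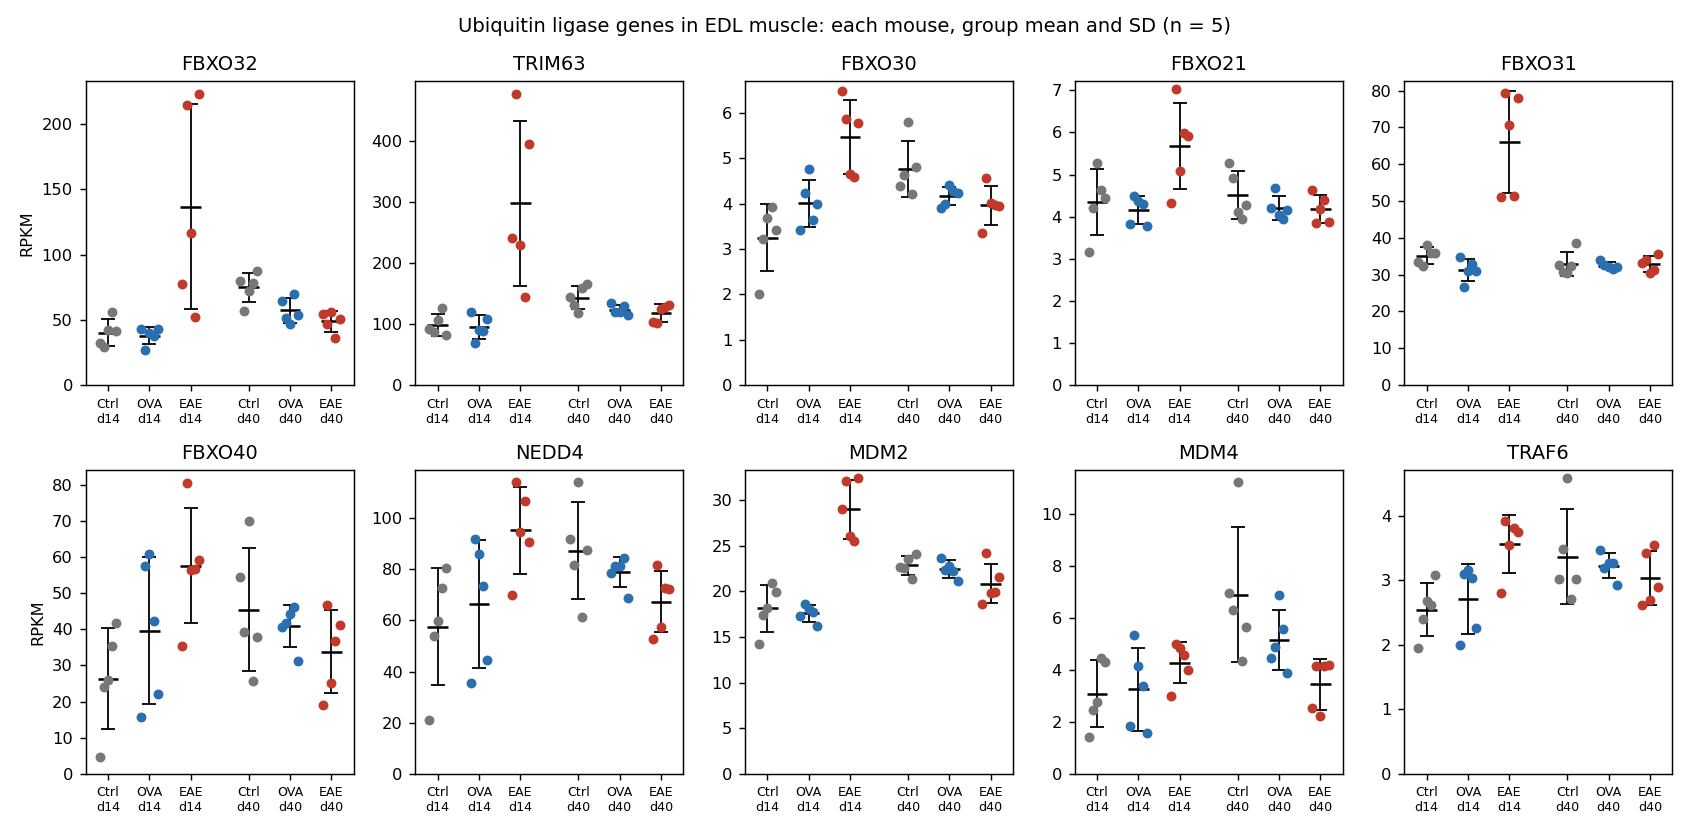
RPKM of the 10 ubiquitin ligase genes in EDL muscle of each mouse (points), with the group mean and SD (bars, n = 5), for Ctrl, OVA and EAE at both times (d14, day 14, and d40, day 40), and each panel has its own linear axis from 0. FBXO32, TRIM63, FBXO31 and MDM2 are highest in the EAE group of day 14, where FBXO32 reaches 223 and TRIM63 477 RPKM.

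The tissue label was checked against its markers: the summed level of 8 fast-fibre genes was 39550 to 83870 RPKM per mouse and that of 6 slow-fibre genes 962 to 2891 RPKM. On day 14 the fast-fibre sum had a median of 48680 RPKM in EAE, 52350 RPKM in OVA and 65660 RPKM in Ctrl mice. The 10 genes with the most reads took up 13.1% to 16.4% of the exon reads of the EAE mice of day 14 and 16.6% to 19.5% in the Ctrl mice of that day, without overlap, while the OVA mice lay at 15.8% to 17.1%. The read totals are not in the table, so the depth behind each value is unknown here. One property set libraries apart and touches several of the 10 genes. A length score was computed for each library as the median log2 deviation of genes with over 6000 exon bases minus that of genes with under 2000. It was below -0.5 in 3 libraries, Ctrl replicate 1 of day 14 (-0.966), OVA replicate 1 of day 14 (-0.755) and OVA replicate 5 of day 14 (-0.609), in which long transcripts were low as a class. On day 14 the median score was -0.305 in Ctrl, -0.0307 in OVA and 0.115 in EAE mice, and on day 40 it was 0.182, 0.098 and 0.0066, so the score moves with the groups. Values without these libraries, and with the score as a term of the model, are given with the calls they change.

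The muscle also held other cells. On day 14, 5 of 6 tested fibroblast markers were lower in EAE than in Ctrl mice, with a summed level of 314 to 513 RPKM against 881 to 2017. Of the macrophage markers, 4 of 8 were lower (132 to 294 against 273 to 413 RPKM), and all 4 tested erythrocyte genes were lower (up to 188.5 RPKM against 189.1 RPKM and more). Endothelial markers were lower in 2 of 6, slow-fibre genes in 3 of 6 and fast-fibre genes in 1 of 8. Over all genes tested in EAE vs Ctrl, 11.8% were called lower and 14.6% higher. All 4 tested neutrophil genes were higher (201 to 392.2 against 3.85 to 9.72 RPKM), also in OVA mice (64.2 to 227 RPKM). Of 2 tested satellite-cell markers 1 was higher, and no marker of these lists was at 0 in any group. On day 40 limma called 0 of 49 marker genes in EAE vs Ctrl, with 12 at an unadjusted p below 0.05, where 2423 of all 8691 genes tested were. In bulk muscle, fewer cells of a type and less RNA per cell cannot be told apart. The part of these shifts in the levels of the ligase genes was not tested.

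Of the promoters of the ligase genes, 3 are shown here as examples: those of TRIM63 and MDM2 as the genes whose windows hold the letters of a FoxO site, and 1 of FBXO40 as a gene restricted to muscle whose window holds E-boxes. RefSeq (GRCm38.p6) gave 12 windows of 250 bases before to 50 bases after a start for 9 of the 10 genes, and FBXO32 was not among them. The motifs searched, on both strands, were the FoxO site GTAAACA, the E-box CAGCTG bound by myogenin and MyoD, the half-site AGAACA of the glucocorticoid receptor, a p53 half-site and an NF-κB site. Capitals mark the matches, and each line reads from 5′ to 3′ on the strand of the gene. The windows are chr4:134314870-134315169 on the + strand for TRIM63, chr10:117710709-117711008 on the - strand for MDM2 and chr16:36990418-36990717 on the - strand for FBXO40.
TRIM63: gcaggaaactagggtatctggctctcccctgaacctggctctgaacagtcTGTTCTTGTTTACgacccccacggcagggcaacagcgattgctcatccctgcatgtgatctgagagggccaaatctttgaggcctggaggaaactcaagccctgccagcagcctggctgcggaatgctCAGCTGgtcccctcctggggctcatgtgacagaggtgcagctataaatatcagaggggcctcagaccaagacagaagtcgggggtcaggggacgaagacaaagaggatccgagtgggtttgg
MDM2: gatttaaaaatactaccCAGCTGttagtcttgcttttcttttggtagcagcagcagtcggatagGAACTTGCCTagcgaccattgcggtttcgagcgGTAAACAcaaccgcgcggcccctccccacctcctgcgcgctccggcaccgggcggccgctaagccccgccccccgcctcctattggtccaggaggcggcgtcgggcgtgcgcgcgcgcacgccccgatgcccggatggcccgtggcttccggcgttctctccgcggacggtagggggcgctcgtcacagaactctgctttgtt
FBXO40: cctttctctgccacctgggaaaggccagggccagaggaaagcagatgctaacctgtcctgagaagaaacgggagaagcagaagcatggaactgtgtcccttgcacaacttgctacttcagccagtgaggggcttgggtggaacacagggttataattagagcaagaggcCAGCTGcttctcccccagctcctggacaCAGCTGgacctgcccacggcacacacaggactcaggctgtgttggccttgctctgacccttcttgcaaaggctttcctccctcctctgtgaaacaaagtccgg
In the TRIM63 window the half-site of the glucocorticoid receptor (first base at -200 from the start, read on the opposite strand) directly adjoins a FoxO site (first base at -194, also on the opposite strand), and an E-box begins at -72. The MDM2 window holds an E-box at -233, a p53 half-site at -186 and a FoxO site at -153. The FBXO40 window holds E-boxes at -81 and -53. Of the windows not printed, another of FBXO40 holds an E-box at -89 and AGAACA at -176, 1 of NEDD4 an E-box at -139 and AGAACA at -216, 1 of MDM4 E-boxes at -134 and -87, and that of FBXO21 an NF-κB site at -72. The windows of FBXO30, FBXO31 and TRAF6 held none of these letters. Among all 32851 promoter windows of this length, 3.65% hold the FoxO letters, 16.3% the E-box, 19.0% the half-site AGAACA, 8.36% the p53 half-site and 8.46% the NF-κB site. A match is a description of the sequence, and binding was not measured.

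On day 14, 7 of the 10 genes rose in EAE mice compared with unimmunized mice: FBXO32, TRIM63, FBXO31, FBXO30, MDM2, FBXO40 and NEDD4. The largest increases were those of FBXO32 (2.99-fold) and TRIM63 (2.80-fold), the pair of ligases most used as markers of atrophy. All 10 genes had estimates above 0, with a median log2 fold change of 0.80 against 0.11 over all 8771 genes tested. With the length score in the model 4 of the 10 were called, 9 estimates were above 0 and the median was 0.49, and without the 3 low-score libraries 6 were called, with a median of 0.60. A gene counts as risen or fallen, and is called, when its adjusted p in limma (Benjamini-Hochberg over all genes tested) is below 0.05 and its fold change exceeds 1.5. By this rule 14.6% of all genes tested were higher in EAE, which is the background for the 7 of 10. With median-of-ratios scaling of the libraries 6 of the genes were called, without NEDD4 (log2 0.77, limma adjusted p = 0.0503). Over all genes that scaling moved the calls from 1282 higher and 1036 lower to 1043 higher and 1200 lower, and the median from 0.11 to 0.04.

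FBXO32 encodes atrogin-1 (MAFbx), an F-box protein that directs MyoD and the initiation factor eIF3-f to degradation. It lies at chr15:58175879-58214892 (mm10, - strand) and overlaps a long non-coding RNA gene, Gm36112. In EAE replicates 1 to 5 of day 14, FBXO32 was at 77.4, 214.5, 117, 52.0 and 223 RPKM. In Ctrl mice it was at 32.4, 29.3, 42.4, 55.6 and 41.6 RPKM, and in OVA mice at 42.8, 26.8, 39.5, 37.3 and 42.6 RPKM. All EAE mice but replicate 4 were above every Ctrl mouse, and all 5 were above every OVA mouse. The log2 fold change was 1.58 ± 0.33 (SE) against Ctrl (limma adjusted p = 0.00123) and 1.66 ± 0.33 against OVA (adjusted p = 0.00109).

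TRIM63 encodes MuRF1, which ubiquitinates thick-filament proteins of the sarcomere. It lies at chr4:134315120-134329629 on the + strand, and its promoter with the adjoining half-site and FoxO letters is printed above. In the EAE mice of day 14 it was at 240.3, 477, 229, 145 and 395 RPKM. Ctrl mice had 91.4, 86.8, 106, 125.5 and 82.2 RPKM and OVA mice 120, 68.6, 89.4, 89.2 and 108 RPKM. The EAE group did not overlap with either other group. TRIM63 rose by 1.49 ± 0.26 on the log2 scale against Ctrl (limma adjusted p = 0.000324) and by 1.54 ± 0.26 against OVA (adjusted p = 0.000275). The EAE mice differed widely among themselves in both genes: replicates 2 and 5 were highest and replicate 4 lowest in each. The ratio of TRIM63 to FBXO32 lay between 1.77 and 3.11 in EAE mice and between 1.98 and 2.96 in Ctrl mice on day 14.

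FBXO31 (chr8:121549443-121578864, - strand) encodes an F-box protein known for the degradation of cyclin D1 and MDM2 after DNA damage. It was at 51.2, 79.3, 70.6, 51.5 and 77.9 RPKM in EAE mice on day 14. Ctrl mice lay between 32.4 and 38.2 RPKM and OVA mice between 26.7 and 34.7 RPKM. The EAE group did not overlap with either other group. FBXO31 was 1.85-fold above Ctrl (log2 0.88 ± 0.13, limma adjusted p = 8.12e-05) and 2.08-fold above OVA (log2 1.06 ± 0.13, adjusted p = 2.1e-05). These were the smallest adjusted p-values of the 10 genes in both comparisons.

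MDM2 (chr10:117688875-117710758, - strand) encodes the main ligase of p53 and is itself a transcriptional target of p53. In EAE mice on day 14 it was at 29.0, 32.1, 26.0, 25.5 and 32.4 RPKM. Ctrl mice had 14.3, 17.4, 18.1, 20.9 and 19.9 RPKM, and OVA mice lay between 16.2 and 18.6 RPKM. The EAE group again did not overlap with the others, with a log2 fold change of 0.68 ± 0.11 against Ctrl (limma adjusted p = 0.00016) and 0.71 ± 0.11 against OVA (adjusted p = 0.000127). With the length score in the model the difference from Ctrl was 0.57 (adjusted p = 0.000231), just under the fold threshold.

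FBXO30 (chr10:11281330-11305750, + strand) encodes MUSA1, a ligase of denervated muscle that BMP signalling holds down. It was at 6.49, 5.87, 4.67, 4.59 and 5.78 RPKM in EAE mice and at 2.01, 3.23, 3.68, 3.92 and 3.42 RPKM in Ctrl mice on day 14. These groups did not overlap, and FBXO30 rose by 0.76 ± 0.17 on the log2 scale (limma adjusted p = 0.00177). OVA mice had 3.42, 4.23, 4.76, 3.65 and 4.00 RPKM and overlapped with both. Against OVA the difference was 0.44 ± 0.17 (adjusted p = 0.047), or 1.35-fold, which is under the fold threshold.

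FBXO40 and NEDD4 were also higher in EAE than in Ctrl mice on day 14, with wide errors. FBXO40 (chr16:36963461-36990530, - strand) encodes a muscle-restricted F-box protein that directs the insulin receptor substrate IRS1 to degradation. It was at 35.3, 80.5, 56.4, 56.9 and 59.3 RPKM in EAE mice, at 4.67, 24.1, 26.0, 35.4 and 41.9 RPKM in Ctrl mice and at 15.7, 57.5, 60.8, 42.3 and 22.1 RPKM in OVA mice. The groups overlapped, and the lowest mice of day 14 were the 3 libraries with a low length score. The log2 fold change against Ctrl was 1.39 ± 0.50 (limma adjusted p = 0.0327), and it was 0.84 ± 0.22 without the 3 libraries (adjusted p = 0.00622) and 0.41 ± 0.21 with the length score in the model (adjusted p = 0.102). The call was lost in 5 of 10 fits that left out 1 mouse, and without Ctrl replicate 1 the value was 0.84 (adjusted p = 0.0685). Against OVA it was 0.68 ± 0.50 (adjusted p = 0.297), and 0.06 ± 0.19 with the score in the model (adjusted p = 0.805).

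NEDD4 (chr9:72662331-72749851, + strand) encodes a HECT ligase that acts on membrane receptors and signalling proteins. With 10973 exon bases it is one of the longest of the 10 genes. It was at 69.8, 114, 94.4, 107 and 90.7 RPKM in EAE mice, at 21.0, 53.8, 59.8, 72.6 and 80.6 RPKM in Ctrl mice and at 35.5, 91.9, 86.0, 73.6 and 44.6 RPKM in OVA mice on day 14. Its lowest mice were again the 3 libraries with a low length score. The difference from Ctrl was 0.84 ± 0.33 (limma adjusted p = 0.0447), falling to 0.51 ± 0.15 without the 3 libraries (adjusted p = 0.0133, under the fold threshold) and to 0.20 ± 0.12 with the score in the model (adjusted p = 0.168). The call was lost in 7 of 10 fits that left out 1 mouse, and without Ctrl replicate 1 the value was 0.51 (adjusted p = 0.114). Against OVA it was 0.60 ± 0.33 (adjusted p = 0.162), and 0.19 ± 0.11 with the score in the model (adjusted p = 0.164). With the replicate number as a block, which is not a known pairing, the NEDD4 difference from OVA passed the call rule (adjusted p = 0.038).

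The other 3 genes did not pass the call rule on day 14. FBXO21 (chr5:117976770-118010198, + strand), an F-box gene known as SMART that FoxO factors induce in denervated muscle, was at 4.32 to 7.03 RPKM in EAE, 3.16 to 5.28 in Ctrl and 3.77 to 4.49 RPKM in OVA mice. Its log2 differences were 0.38 ± 0.14 against Ctrl (limma adjusted p = 0.041) and 0.43 ± 0.14 against OVA (adjusted p = 0.0285), both under the fold threshold, and 0.18 (adjusted p = 0.184) and 0.30 (adjusted p = 0.0238) with the length score in the model. TRAF6 (chr2:101678420-101701668, + strand), a RING ligase that builds signalling chains of ubiquitin downstream of cytokine receptors, was at 2.81 to 3.92 RPKM in EAE against 1.95 to 3.08 in Ctrl and 1.99 to 3.16 in OVA mice. Its differences were 0.48 ± 0.16 (adjusted p = 0.0232) and 0.40 ± 0.16 (adjusted p = 0.0602), and 0.21 (adjusted p = 0.05) and 0.23 (adjusted p = 0.0229) with the score in the model. MDM4 (chr1:132986105-133030587, - strand), the partner of MDM2 that restrains p53, was at 3.01 to 4.99 RPKM in EAE, 1.41 to 4.44 in Ctrl and 1.57 to 5.35 in OVA mice. Its difference from Ctrl was 0.55 ± 0.33 (adjusted p = 0.182), and it was -0.09 ± 0.14 with the length score in the model. MDM4 has the longest exons of the 10 genes, 14798 bases, and overlaps the pseudogene Gm29257 and the long non-coding RNA gene Gm41953.

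Compared with OVA mice, 4 of the 10 genes rose in EAE on day 14 (FBXO32, TRIM63, FBXO31 and MDM2), where 11.0% of the 8674 genes tested rose. The members' median was 0.64 and that of all genes 0.11. In the model with the length score the same number was called and the median was 0.32. Markers of other cells moved in this comparison too: 5 of 8 macrophage, 4 of 6 fibroblast, 3 of 6 endothelial, 3 of 6 slow-fibre, 1 of 8 fast-fibre, 1 of 4 tested adipocyte and 4 of 4 erythrocyte markers were lower in EAE than in OVA mice, and 1 of 4 tested neutrophil and 1 of 2 tested satellite-cell markers were higher. Over all genes tested, 9.28% were called lower and 11.0% higher. The summed erythrocyte level was 26.4 to 188.5 RPKM in EAE against 475 to 1585 RPKM in OVA mice, and the summed fibroblast level 314 to 513 against 740.4 to 1104 RPKM; their part in the ligase levels was not tested. With median-of-ratios scaling, the same 4 genes were called, while over all genes the split of calls moved from 957 higher and 805 lower to 759 higher and 965 lower. The EAE groups do not overlap with OVA in these 4 genes, where 18.0% of all genes had every EAE mouse above every OVA mouse. Against Ctrl the groups did not overlap in TRIM63, FBXO30, FBXO31 and MDM2, where the share over all genes was 21.2%. Both comparisons use the same EAE mice.

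Immunization with ovalbumin in CFA was not accompanied by a called change in any of the genes tested. On day 14, 9 of the 10 passed the filter on low values (TRAF6 was left out, with group means under 3 RPKM), limma called 0 of the 9, and 0 had an unadjusted p below 0.05. Over all genes 0.142% were called. The intervals were narrow for some genes and wide for others: the OVA minus Ctrl difference in log2 was -0.03 for MDM2, with a 95% interval from -0.26 to 0.20, and 0.71 for FBXO40, with an interval from -0.36 to 1.77. For FBXO32 the interval reached from -0.77 to 0.62 and for TRIM63 from -0.61 to 0.49.

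The genes differed in how far their values moved with the length score. The library with the lowest score, Ctrl replicate 1 of day 14, held the lowest value of the series in 7 of the 10 genes, and 8 of the 10 had their highest value in an EAE mouse of day 14. The share of all genes with such extremes was not computed, so these counts are not read as particular to the 10 genes. In the 3 low-score libraries NEDD4 was at 21.0, 35.5 and 44.6 RPKM and MDM4 at 1.41, 1.82 and 1.57 RPKM, the lowest values of the 30 mice in both genes. Ctrl replicate 3 of day 40 had the highest score, 0.623, and also the highest MDM4 (11.2 RPKM) and TRAF6 (4.59 RPKM). FBXO32, TRIM63 and FBXO31 had their lowest value in none of these 3 libraries but in OVA replicate 2 of day 14, and in FBXO31 the 5 EAE mice of day 14 were above all other mice of the series. The longest of the 10 genes are MDM4 (14798 exon bases), NEDD4 (10973), TRAF6 (7883) and FBXO32 (6976), the shortest is TRIM63 (2842), and the other 5 have 5083 to 5545 exon bases. With the score as a term of the model, 4 of the genes were called in EAE vs Ctrl on day 14: FBXO32 (log2 1.49), TRIM63 (1.55), FBXO30 (0.61) and FBXO31 (0.85).

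**Figure D2:**
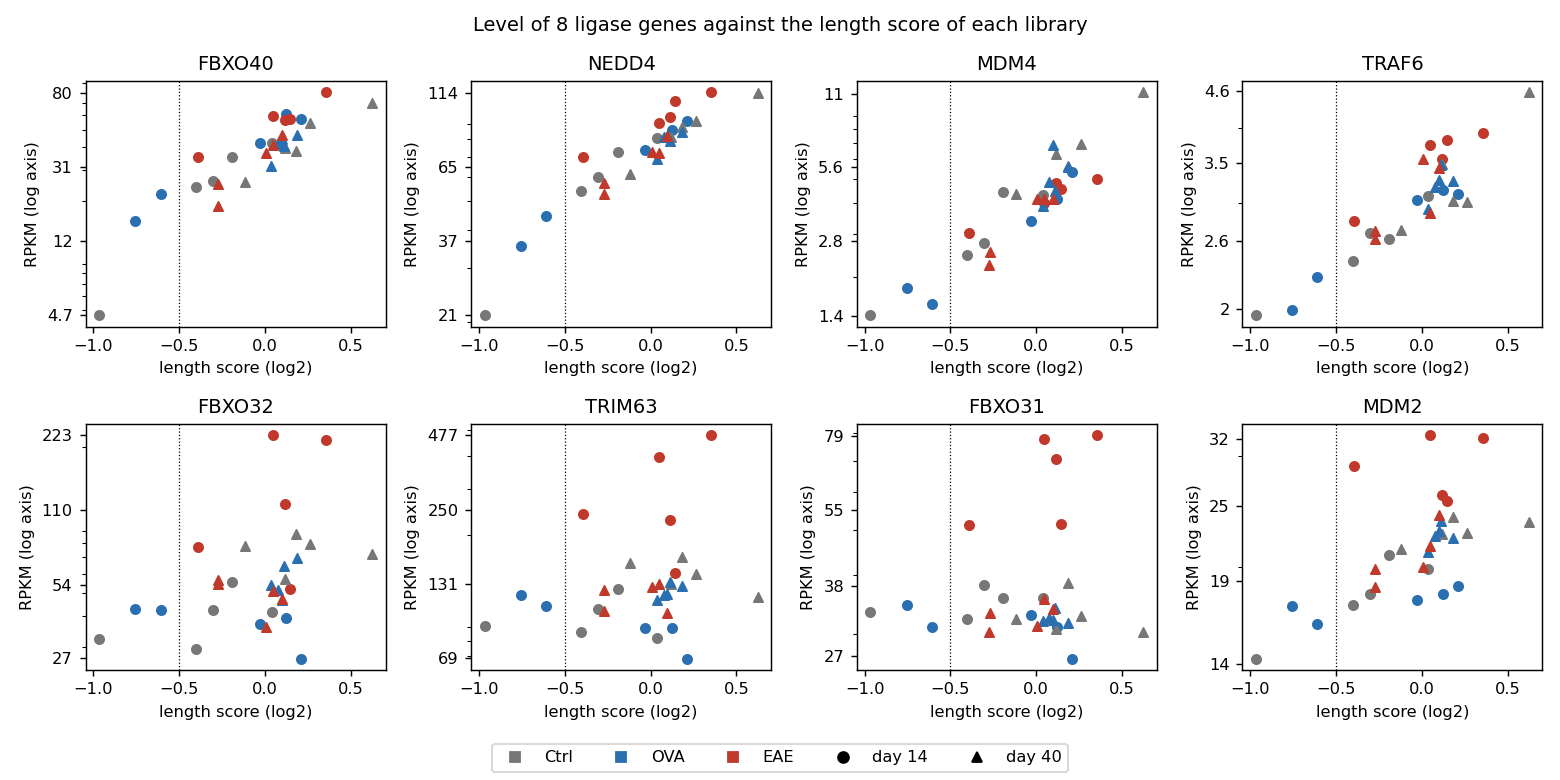
RPKM (log axis) of 8 ligase genes in each of the 30 mice against the length score of the library (log2), by group (colour) and day (shape); the dotted line marks a score of -0.5. All of the genes but FBXO32, TRIM63 and FBXO31 have their lowest level in the library with the lowest score, and all but MDM4 and TRAF6 have their highest level in an EAE mouse of day 14.

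**Figure D3:**
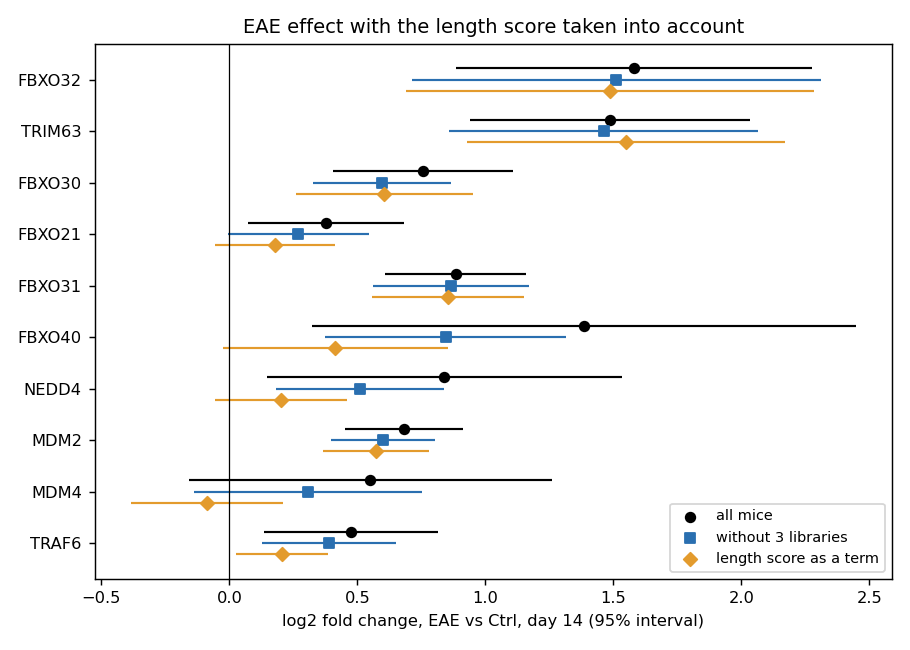
Log2 fold change with 95% interval in EAE vs Ctrl on day 14, for all mice, without the 3 libraries with a low length score, and with the score as a term of the model. FBXO32, TRIM63 and FBXO31 hardly move, while FBXO40 moves from 1.39 to 0.41 and NEDD4 from 0.84 to 0.20.

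On day 40 the order of the groups was different, and 2 of the 10 genes were lower in EAE than in Ctrl mice: FBXO32 and MDM4. Over all 8691 genes 0.391% were called lower. FBXO32 was at 54.6, 47.1, 56.3, 36.1 and 50.9 RPKM in EAE mice and at 79.4, 57.0, 72.3, 78.3 and 87.4 RPKM in Ctrl mice. Every EAE mouse was below every Ctrl mouse, as in 4.51% of all genes, and the log2 fold change was -0.61 ± 0.14 (limma adjusted p = 0.0312). MDM4 was at 2.53, 4.13, 2.24, 4.16 and 4.17 RPKM in EAE and at 6.95, 6.32, 11.2, 4.34 and 5.66 RPKM in Ctrl mice, a difference of -0.96 ± 0.23 (adjusted p = 0.0443). Both calls were lost with median-of-ratios scaling (FBXO32 at -0.54, adjusted p = 0.0539, and MDM4 at -0.89, adjusted p = 0.0559), and leaving out a single mouse ended the call of FBXO32 in 7 of 10 fits and that of MDM4 in 8 of 10. With the length score in the model, FBXO32 was at -0.67 ± 0.17 (adjusted p = 0.129) and MDM4 at -0.38 ± 0.14 (adjusted p = 0.223).

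The other members did not pass on day 40. TRIM63 was at 102 to 131 RPKM in EAE, 114 to 134 in OVA and 117.5 to 166 RPKM in Ctrl mice, and its EAE minus Ctrl difference was -0.28 ± 0.10 (limma adjusted p = 0.0979). For FBXO30 it was -0.26 (adjusted p = 0.112) and for NEDD4 -0.37 (adjusted p = 0.117). FBXO31, the gene with the clearest rise on day 14, lay between 30.3 and 38.5 RPKM in all 15 mice of day 40, and its difference from Ctrl was 0.00 with a 95% interval from -0.14 to 0.15. Against OVA, limma called 0 of the 10 genes in EAE mice on day 40, with 1 gene at an unadjusted p below 0.05 (MDM4, -0.59, adjusted p = 0.211), and 0.209% of all genes were called. OVA vs Ctrl on day 40 gave 0 calls among the 10 genes, 2 with an unadjusted p below 0.05 (FBXO32, -0.39, and TRIM63, -0.21, both with an adjusted p of 0.999), and 0.00% over all genes, with 272 genes at an unadjusted p below 0.05. All 10 estimates of OVA vs Ctrl were below 0, with a median of -0.11, while with the length score in the model 4 of them were above 0 and the median was -0.06. The EAE and OVA comparisons share the Ctrl mice.

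The effect of EAE differed between the days. In an interaction test over all 30 mice, the EAE vs Ctrl difference was lower on day 40 than on day 14 in 9 of the 10 genes, where 20.9% of the 9013 genes tested were called lower. With median-of-ratios scaling 8 of the genes were called, and over all genes the calls moved from 1059 higher and 1888 lower to 1489 higher and 1256 lower. The median interaction value of the 10 genes was -1.11. That of all genes was -0.15 on the deposited scale and 0.00 with the other scaling. The interaction value was -2.20 ± 0.38 on the log2 scale for FBXO32 (limma adjusted p = 4.79e-05) and -1.76 ± 0.29 for TRIM63 (adjusted p = 2.72e-05). FBXO31 had -0.88 ± 0.15 (adjusted p = 3.1e-05), MDM2 -0.82 ± 0.13 (adjusted p = 1.17e-05) and FBXO30 -1.01 ± 0.19 (adjusted p = 0.000147). The values of FBXO40 (-1.81 ± 0.60), MDM4 (-1.51 ± 0.43), NEDD4 (-1.20 ± 0.38) and TRAF6 (-0.61 ± 0.20) were also called. With the length score in the model these 4 were no longer called, at -0.16, -0.36, -0.16 and -0.11, and the 5 genes before them were. TRAF6 was also under the fold threshold with median-of-ratios scaling (-0.47) and without the 3 low-score libraries (-0.52), and its call was lost in 6 of 20 fits without 1 mouse. FBXO21 had -0.48 ± 0.17 (adjusted p = 0.0217), under the fold threshold, and -0.23 with the score in the model (adjusted p = 0.256) and -0.33 with median-of-ratios scaling (adjusted p = 0.0891). The median of the 10 genes was -0.49 with the score in the model. Without the score, Ctrl mice of day 40 were above those of day 14 by 1.01 in FBXO40, 1.18 in MDM4, 0.71 in NEDD4, 0.38 in TRAF6 and 0.56 in FBXO30. Within EAE mice the same genes were at -0.80, -0.33, -0.50, -0.23 and -0.45, none of them called. Their interaction values thus hold a higher level in Ctrl mice of day 40 as well as a lower one in EAE mice.

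Against OVA, 5 of the 10 genes had a lower EAE effect on day 40 than on day 14, where 13.7% of all genes did. They were FBXO32 (-1.88 ± 0.38, limma adjusted p = 0.000349), TRIM63 (-1.61 ± 0.29, adjusted p = 0.000104), FBXO31 (-1.04 ± 0.15, adjusted p = 4.77e-06), MDM2 (-0.82 ± 0.13, adjusted p = 1.26e-05) and MDM4 (-1.09 ± 0.43, adjusted p = 0.0477). The call of MDM4 was lost with the length score in the model (-0.37), without the 3 low-score libraries (-0.59) and with median-of-ratios scaling (-0.96), where 4 of the genes were called, and in 13 of 20 fits without 1 mouse. Over all genes that scaling moved the calls from 729 higher and 1222 lower to 999 higher and 786 lower.

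Within the EAE mice, 3 genes were lower on day 40 than on day 14, FBXO32 (-1.28 ± 0.27, limma adjusted p = 0.000262), TRIM63 (-1.22 ± 0.20, adjusted p = 1.93e-05) and FBXO31 (-0.98 ± 0.10, adjusted p = 1.26e-08), where 12.7% of all genes were lower. TRIM63, FBXO31, MDM2 and FBXO30 did not overlap between the days, as in 21.9% of all genes. FBXO30 was at 4.59 to 6.49 RPKM on day 14 and 3.35 to 4.57 RPKM on day 40 (-0.45 ± 0.14, adjusted p = 0.00746, under the fold threshold). The same 3 were called with median-of-ratios scaling, which moved the calls over all genes from 728 higher and 1106 lower to 891 higher and 892 lower. MDM2 was at 25.5 to 32.4 RPKM on day 14 and 18.6 to 24.2 on day 40, a difference of -0.47 ± 0.09 (adjusted p = 7.46e-05) that is under the fold threshold. In OVA mice limma called 0 of the 10 genes between the days, 3 had an unadjusted p below 0.05 and 3.97% of all genes were called. FBXO32 (0.60, adjusted p = 0.154) and MDM2 (0.35, adjusted p = 0.0118, under the fold threshold) were higher in every OVA mouse of day 40 than in any of day 14, as in 7.02% of all genes.

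The unimmunized mice also differed between the days. FBXO32 was at 57.0 to 87.4 RPKM on day 40 and at 29.3 to 55.6 RPKM on day 14 in Ctrl mice, without overlap, as in 6.73% of all genes (log2 0.92 ± 0.27, limma adjusted p = 0.0145). MDM4 (1.18 ± 0.30, adjusted p = 0.00794) and NEDD4 (0.71 ± 0.27, adjusted p = 0.0434) were the other 2 called genes of the 10, where 5.02% of all genes were called higher. FBXO30 (0.56, adjusted p = 0.00538) and MDM2 (0.34, adjusted p = 0.00784) did not overlap either and were under the fold threshold. With the length score in the model limma called 0 of the 10, and 4 had an unadjusted p below 0.05: FBXO32 was at 0.84 ± 0.32 (adjusted p = 0.117), MDM4 at 0.24 ± 0.15 and NEDD4 at -0.14 ± 0.10. Leaving out Ctrl replicate 1 of day 14 ended the calls of FBXO32 (0.85, adjusted p = 0.0508) and NEDD4 (0.38, adjusted p = 0.225), and over all fits without 1 mouse the call of NEDD4 was lost in 6 of 10. Median-of-ratios scaling moved the calls over all genes from 441 higher and 382 lower to 273 higher and 537 lower, with 2 of the members called. The mice of the 2 days were different animals, so the day and any other difference between these sets of mice cannot be told apart.

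Genes that work with the 10 ligase genes were taken from 8 lists. By number, the FoxO, p53 and upstream lists had the most called genes in EAE vs Ctrl on day 14. The lists differ in size, and by share the order is different. Over all genes tested, 14.6% were called higher and 11.8% lower in EAE vs Ctrl on day 14, and the median log2 fold change was 0.11. With median-of-ratios scaling 11.9% were higher and 13.7% lower, and the median was 0.04. The lists are described by counts and medians, with no test. Of 101 genes tested in all lists 40 were called, and 36 with the length score in the model, 36 without the 3 low-score libraries and 38 with median-of-ratios scaling. Named genes whose call these settings end are given with their values.

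The SCF core and neddylation list holds the scaffold of the F-box ligases and the enzymes that switch it on. In EAE vs Ctrl on day 14, 4 of its 8 tested genes rose and 0 fell, with a list median of 0.48. SKP1, the adaptor that binds the F-box, was at 356.5, 276, 211, 244 and 280 RPKM in EAE and at 129 to 158.5 RPKM in Ctrl mice, a log2 fold change of 0.87 ± 0.14 (limma adjusted p = 0.000222). CUL1, the scaffold, was at 37.7 to 49.5 RPKM in EAE and 19.7 to 32.3 RPKM in Ctrl mice (0.68 ± 0.14, adjusted p = 0.00106), but it was under the fold threshold with the length score in the model (0.44, adjusted p = 0.000195) and without the 3 low-score libraries (0.57, adjusted p = 0.00047). Neither overlapped between the groups, where 21.2% of all genes had every EAE mouse above every Ctrl mouse. COPS5, a subunit of the signalosome that removes NEDD8 from cullins, rose by 0.85 ± 0.13 (adjusted p = 0.000101). Against OVA, 3 of the 8 rose (SKP1, COPS5 and CUL1), where 11.0% of all genes tested rose. CUL1 was not called there with the score in the model (0.44), without the 3 libraries (0.43) or with median-of-ratios scaling (0.52).

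Of the ubiquitin, E1 and E2 genes, 3 of 13 tested rose and 0 fell (list median 0.15): UBE2D3 by 0.98 ± 0.16 (limma adjusted p = 0.000152), UBE2J1 by 0.69 ± 0.10 (adjusted p = 6.28e-05) and UBE2G1 by 0.67 ± 0.14 (adjusted p = 0.00147), all of them conjugating enzymes. UBE2G1 was under the fold threshold without the 3 low-score libraries (0.54, adjusted p = 0.00191). Of 10 deubiquitinases tested, 4 rose and 0 fell (list median 0.45), led by USP28 (1.17 ± 0.20), USP14, a proteasome-bound enzyme (0.93 ± 0.13), and USP2 (0.82 ± 0.14). Of 20 other ubiquitin ligases of muscle, 2 rose and 1 fell (list median 0.20). UBR4, an N-recognin ligase, rose by 0.81 ± 0.29 (adjusted p = 0.0326), but its value was 0.29 with the length score in the model (adjusted p = 0.159). TRAF2 rose by 0.79 ± 0.15 (adjusted p = 0.000512), while NEDD4L, a HECT ligase related to NEDD4, fell by 0.61 on the log2 scale (adjusted p = 0.00696).

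The close relatives of TRIM63 did not pass the call rule in EAE mice against Ctrl or OVA mice on day 14. TRIM54 (MuRF3) was at 317 to 370.1 RPKM in EAE, 250.4 to 334.5 in Ctrl and 218 to 287 RPKM in OVA mice on day 14. Its difference from Ctrl was 0.27 ± 0.11 (limma adjusted p = 0.049) and that from OVA 0.43 ± 0.11 (adjusted p = 0.00561), both under the fold threshold, and they were 0.41 and 0.52 with the length score in the model. TRIM55 (MuRF2) was at 28.2 to 34.3 RPKM in EAE and 16.3 to 42.4 RPKM in Ctrl mice, with a difference of -0.01 ± 0.23 (adjusted p = 0.978), and -0.38 ± 0.15 with the length score in the model (adjusted p = 0.0454).

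In the list of FoxO factors and targets, 8 of 17 tested genes rose and 1 fell in EAE vs Ctrl on day 14 (list median 0.45). FOXO1 was at 8.05, 14.3, 9.55, 7.61 and 20.6 RPKM in EAE mice and at 5.53 to 6.50 RPKM in Ctrl mice, without overlap, as in 21.2% of all genes (0.87 ± 0.21, limma adjusted p = 0.00331). Its highest mice were replicates 5 and 2, which were also the highest in FBXO32 and TRIM63. FOXO3 was at 2.75 to 7.31 RPKM in EAE and 0.295 to 2.92 RPKM in Ctrl mice (1.62 ± 0.55, adjusted p = 0.024), and its lowest Ctrl mouse was replicate 1, the library with the lowest length score. With the score in the model the FOXO3 difference was 0.53 ± 0.18 (adjusted p = 0.0207, under the fold threshold), and without the 3 low-score libraries it was 1.14 ± 0.27 (adjusted p = 0.00385). Against OVA its difference was 0.89 ± 0.55 (adjusted p = 0.21). GADD45A, a growth arrest gene of denervated muscle, had the largest change of the list, 2.62 ± 0.38 (adjusted p = 7.68e-05), and IRS2 rose by 1.63 ± 0.46 (adjusted p = 0.00865), or by 0.93 ± 0.35 with the score in the model (adjusted p = 0.0376).

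In the p53 list, 5 of 8 tested genes rose and 0 fell (list median 0.77). TRP53 itself was at 11.6 to 16.0 RPKM in EAE and 9.86 to 12.1 RPKM in Ctrl mice, a difference of 0.33 ± 0.10 (limma adjusted p = 0.0159) that is under the fold threshold. CDKN1A, the cell-cycle inhibitor p21, was at 287, 243, 102, 125 and 234 RPKM in EAE and at 18.5 to 31.9 RPKM in Ctrl mice (2.94 ± 0.30, adjusted p = 4.38e-06). EDA2R, a receptor of the TNF receptor family, rose by 4.22 ± 0.34 (adjusted p = 7.53e-07) and PHLDA3 by 1.00 ± 0.21 (adjusted p = 0.00129). In the same mice MDM2, the p53 target among the members, had 1.60 times the level of Ctrl mice, and was under the fold threshold with the length score in the model (log2 0.57).

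Of the upstream regulators, 7 of 18 tested rose and 1 fell (list median 0.30). MYOG, the myogenic factor that induces FBXO32 and TRIM63 in denervated muscle, was at 273, 369, 112, 65.9 and 216 RPKM in EAE mice against 8.41 to 11.4 RPKM in Ctrl mice and 7.82 to 19.2 RPKM in OVA mice. Its log2 fold change was 4.10 ± 0.36 (limma adjusted p = 1.28e-06). EAE replicate 4 had the lowest MYOG, and it was also the lowest in FBXO32 and TRIM63. The order of the other mice was not the same in MYOG and FBXO32. Replicate 1 had more MYOG than replicates 3 and 5, but less FBXO32 (77.4 RPKM, against 117 and 223 RPKM). RUNX1 rose by 2.84 ± 0.33 (adjusted p = 9.69e-06) and FKBP5, a target of the glucocorticoid receptor, by 2.40 ± 0.40 (adjusted p = 0.000233). Against OVA, 7 of 18 rose, where 11.0% of all genes tested rose. HDAC4, a repressor that acts upstream of MYOG after denervation, was at 2.09 ± 0.33 there (limma adjusted p = 0.000153).

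Of 7 genes for reported substrates of the ligases, 3 rose and 1 fell in EAE vs Ctrl on day 14. MYOD1, a substrate of atrogin-1, was at 24.3 to 95.9 RPKM in EAE and 12.8 to 21.1 RPKM in Ctrl mice (1.90 ± 0.28, limma adjusted p = 7.7e-05). DES, which encodes the intermediate filament desmin, rose by 0.72 ± 0.17 (adjusted p = 0.00254). CCND1, the cyclin D1 gene, was at 1.69 to 2.99 RPKM in EAE and 4.39 to 7.29 RPKM in Ctrl mice and fell by 1.35 on the log2 scale (adjusted p = 0.00121). These are transcript levels, and the proteins, which the ligases act on, were not measured.

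**Figure D4:**
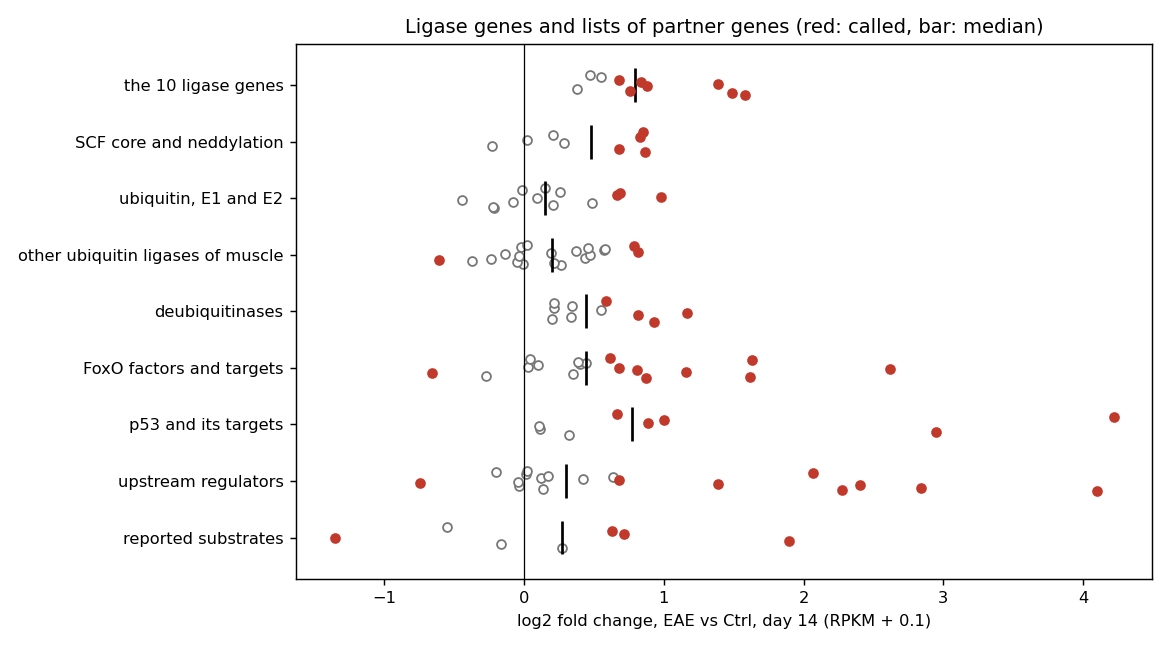
Log2 fold change in EAE vs Ctrl on day 14 of each tested gene of the 10 ligase genes and of the 8 lists; red points passed the call rule and the bar is the median of the list. The median of the ligase genes is 0.80, that of the p53 list 0.77 and that of the other lists 0.15 to 0.48. With the length score in the model (not drawn) the medians are 0.49 for the ligase genes, 0.80 for the p53 list and 0.52 for the FoxO list. Those of the other lists are then -0.01 to 0.48.

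Outside the EAE comparisons of day 14, no gene of these lists was called within a day. In OVA vs Ctrl on day 14 limma called 0 of 96 genes, with 5 at an unadjusted p below 0.05, where 821 of all 8471 genes tested were. On day 40 it called 0 of 98 genes in EAE vs Ctrl, 0 of 96 in EAE vs OVA and 0 of 99 in OVA vs Ctrl. Of these, 28, 14 and 5 had an unadjusted p below 0.05. Over all genes tested it was 2423 of 8691, 1500 of 8598 and 272 of 8706. In EAE mice of day 40, SKP1 was at 157 to 173 RPKM, FOXO1 at 5.48 to 7.03, CDKN1A at 17.4 to 28.3 and MYOG at 7.38 to 17.3 RPKM. Between the days within EAE mice, 7 of 17 FoxO genes, 7 of 17 upstream regulators, 4 of 9 p53 genes, 3 of 7 substrate genes, 4 of 13 ubiquitin, E1 and E2 genes, 2 of 8 SCF genes, 2 of 10 deubiquitinases and 2 of 20 other ligases tested were lower on day 40, where 12.7% of all genes were lower. In these lists 2 genes, SESN1 and CCND1, were higher on day 40, where 8.36% of all genes were; SESN1 is named after its value was seen.

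Genes with the most similar pattern were found by the Pearson correlation of log2(RPKM + 0.1) over the 30 mice among 9048 other genes. The points share groups and library properties, so the values are a description. For FBXO32 the nearest gene was TRIM63 (0.932), followed by LARS (0.879) and TCP11L2 (0.871). For TRIM63 they were TGIF1 (0.936), FBXO32 (0.932) and FTSJ3 (0.923). For FBXO30 they were SUZ12 (0.922), RAB6A (0.912) and GSPT1 (0.91), and for MDM2 they were KAT2B (0.953), KTN1 (0.942) and TMEM87A (0.94). For FBXO40 they were MEF2A (0.977), TMEM182 (0.977) and DAG1 (0.976), and the levels of FBXO40 also follow the length score.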

How the data were processed

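RNA-Seq values of EDL muscle from 30 mice were used. Per the study's methods, the authors used a directional poly(A) kit and paired-end sequencing. Reads were aligned by Subread (mm10) and counted on RefSeq genes by featureCounts, and RPKM was computed. The deposited values are log2 of RPKM + 1, with 0.0001 in place of 0 in 25.8% of the values. This scale was checked: RPKM times exon kilobases, divided by the scaling constant of RPKM, should come to about 1 per mouse, and it came to 1.47 to 1.57 with the values read as log2 and to 0.173 to 0.203 with the values read as RPKM. Values were converted back to RPKM. Every column of mouse values was used, and columns were matched to mice by the titles in the labels.

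limma 3.58.1 in R 4.3.3 (lmFit, eBayes with trend) was run on log2(RPKM + 0.1), so fold changes of low genes are understated. Genes with a mean above 3 RPKM in a compared group were tested, in 1 model of the 15 mice from 1 day, or of all 30 mice for interactions and comparisons between days. A call needed a p under 0.05 after Benjamini-Hochberg adjustment and a change of over 1.5-fold, which are the thresholds the authors used with EdgeR on read counts; counts were not used here. The model was also run on simulated data, and the outcome is not given here. No 2 mice of a group had identical values.

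The 10 genes, the partner lists, the marker lists and the tests were chosen with earlier results of these data known. Of the partner genes, the text names at most the 3 called genes with the largest change per list and comparison, plus FOXO1, FOXO3, TRIM54, TRIM55, MYOG, TRP53, CDKN1A, SKP1 and CUL1, and the nearest patterns of 5 members. The length score used exon lengths of GENCODE M21 and was chosen after seeing the data. Alternatives were a pseudocount of 1, no filter, no fold threshold, median-of-ratios scaling, another set of mice in the model, a replicate block, leaving out each mouse, leaving out the low-score libraries, and the length score as a covariate. The last 2 were chosen after seeing the data.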

Additional observations from a re-analysis of the deposited data

Results flagged for a closer look

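FBXO40 in Ctrl replicate 1 of day 14 was at 4.67 RPKM, far below the other 4 mice of its group (24.1 to 41.9 RPKM). In RPKM, its gap to the next mouse as a part of the group's range was below Dixon's critical value of 0.71 for 5 samples. On the log2 scale used for limma, the gap was 0.746 of the group's range, above that value, so the flag depends on the scale. On the log2 scale this was the only such mouse among 60 groups of values, of which chance alone would give about 1 in 20. The same library had the lowest length score of the series, -0.966.

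The effect of EAE against Ctrl differed between day 40 and day 14 by the interaction test in limma for all 10 genes at an adjusted p below 0.05. With no fold threshold, 4382 of all 9013 genes tested passed as well. The differences of the 10 genes on the log2 scale, day 40 minus day 14, were -2.20 for FBXO32, -1.76 for TRIM63, -1.01 for FBXO30, -0.48 for FBXO21, -0.88 for FBXO31, -1.81 for FBXO40, -1.20 for NEDD4, -0.82 for MDM2, -1.51 for MDM4 and -0.61 for TRAF6. Against OVA, 7 of the 10 genes differed in the same way, where 3138 of all 8935 genes tested did. The 7 were FBXO32 (-1.88), TRIM63 (-1.61), FBXO30 (-0.51), FBXO21 (-0.43), FBXO31 (-1.04), MDM2 (-0.82) and MDM4 (-1.09). The day 14 part of these values uses the same EAE mice in both comparisons. In the model with the length score, 5 genes against Ctrl and 4 against OVA had an adjusted p below 0.05; against Ctrl FBXO21 (-0.23), FBXO40 (-0.16), NEDD4 (-0.16), MDM4 (-0.36) and TRAF6 (-0.11) did not. With median-of-ratios scaling it was 9 and 4 genes.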

How the results depend on the processing

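The rises of FBXO32, TRIM63, FBXO31 and MDM2 in EAE vs OVA on day 14 were called under every alternative run, as were those of FBXO32, TRIM63, FBXO30 and FBXO31 in EAE vs Ctrl. Over all 2122 values of the 10 genes, 2002 kept their side of the threshold, 87 lost and 32 gained a call, and 1 called value changed sign: NEDD4 in Ctrl mice, day 40 vs day 14, at -0.14 with the length score as a covariate. Of values never called, 64 changed sign. Of all 65 sign changes, 34 came with 1 mouse left out and 22 with that covariate. With that covariate 4 of the 10 genes were called in EAE vs Ctrl on day 14 in place of 7, 5 in its change between days in place of 9, and 0 between days in Ctrl mice in place of 3. In EAE vs Ctrl on day 40 the 2 calls became 0 with no filter on low values, with median-of-ratios scaling, with all 30 mice in the model, with the replicate block and with the covariate; the number of genes at an unadjusted p below 0.05 was then 5, 2, 2, 5 and 3. With no fold threshold 7 genes were called between days in Ctrl, 1 in OVA and 6 in EAE mice, and with only the mice of the compared groups 1 in OVA mice. Over all genes tested, no fold threshold gave 2766 calls of 8788 in Ctrl and 4270 of 8709 in EAE mice. The causes were not tested.

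Leaving out 1 mouse at a time gave 5 to 7 called members in EAE vs Ctrl and 4 to 4 in EAE vs OVA on day 14, 0 to 2 in EAE vs Ctrl on day 40, 8 to 9 and 4 to 6 in their changes between days, and 1 to 6, 0 to 1 and 3 to 3 between days in Ctrl, OVA and EAE mice; it was 0 to 0 in OVA vs Ctrl on both days and EAE vs OVA on day 40. Between days in Ctrl mice, the 6 came without Ctrl replicate 4 of day 14 and the 1 without replicate 1.

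The correlation of same-numbered mice ran from -0.71 to 0.69, with at most 3 of 5 pairs over 0.1 in a comparison (both day 14 comparisons with OVA) and at most 1 mouse closest to its own number, so the numbers were not taken as pairs, although replicate 1 had the lowest length score of its group in every group of day 14. With the replicate block 7, 5 and 0 members were called within day 14, 0, 0 and 0 within day 40, 9 and 6 in the changes between days, and 4, 0 and 3 between days; NEDD4 gained a call in EAE vs OVA on day 14 and in its change between days, and FBXO40 between days in Ctrl mice. Over all genes, calls in EAE vs Ctrl on day 14 ranged from 1974 to 4195 around 2318, in EAE vs Ctrl on day 40 from 0 to 229 around 40, and between days in Ctrl mice from 97 to 2766 around 823. Read counts were not used, so counting error in the low genes (FBXO21, FBXO30, MDM4 and TRAF6) is unknown.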

Other observations

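The ratio of NEDD4 to FBXO40, a pair of genes that both follow the length score, was 4.49 in Ctrl replicate 1 of day 14 and 1.92 or more in that group, against 1.42 to 1.98 in EAE and 1.41 to 2.27 in OVA mice on day 14. On day 40 it lay between 1.63 and 2.78 in all groups. These are values of single mice with no test.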
